A study of Mus musculus with 5 samples.

Results

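The genes described here are Trp53, which encodes p53, and 9 genes that p53 is known to switch on or that hold it in check: Mdm2, Cdkn1a, Bbc3, Bax, Ccng1, Sesn2, Gadd45a, Trp53inp1 and Phlda3. They are given by symbol, were chosen with earlier results of these data known, and were all found among the 55573 genes of the count tables. RNA was sequenced from the right hemisphere of C57BL/6 female mice, 7 to 8 weeks old at inoculation, that carried a GL261 glioma made to express luciferase and mKate2. The vehicle group (3 libraries) received a dilution buffer, and the UMBO group (2 libraries) received ultrasound-mediated blood-brain barrier opening, which combines low-intensity pulsed ultrasound with injected microbubbles. Both groups were treated on days 21 and 24 and were sacrificed 24 h after the last session. The comparison asks how the transcripts of the hemisphere differed after UMBO. Mice entered the study only once their tumor gave enough bioluminescence. The study describes the tumors of the mice chosen for sequencing as comparable in size by bioluminescence. GL261 is a single cell line. The labels give a group and a replicate number for each of the 5 libraries and do not name mice. Each library is taken here as 1 mouse. A figure legend of the study gives n = 3 for this comparison, but only 2 UMBO libraries were analysed here.

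p53 is a transcription factor that is kept scarce by the ubiquitin ligase Mdm2 and accumulates after DNA damage, oncogene activity and other stresses. Once stable, it binds a paired DNA element near its target genes and raises genes of cell cycle arrest (Cdkn1a, Gadd45a), cell death (Bax, Bbc3) and metabolic restraint (Sesn2), as well as Mdm2, which closes a negative feedback loop. Because p53 is controlled mostly at the protein level, its mRNA is a poor measure of its activity, and its targets are read instead. GL261 is known to carry a mutated p53 gene, and counts per gene do not separate the tumor's transcripts from those of the host brain.

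The DNA element recognised by p53 is shown first, since it is what the target genes are known to share. Promoter windows of RefSeq on GRCm38.p6 (250 bases before to 50 after a transcript start, 300 in all) were present for 9 of the 10 genes, as 12 windows. Each was searched for the p53 consensus decamer without mismatch, which reads alike on both strands, and for a pair of adjacent decamers (20 bases) with at most 3 mismatches outside the C and G of each core. Both search rules were set with these sequences in view. The decamer was in 6 of the 12 windows (50.0%), against 8.36% of all 32851 promoter windows. The adjacent pair was in 4 of the 12 (33.3%), those of Cdkn1a, Ccng1, Trp53 and Bbc3, against 1.38% of all windows, 7 of 40 windows (17.5%) of other p53 target genes and 0 of 13 windows of cell cycle genes. A decamer and a pair can overlap, as they do for Cdkn1a, Ccng1 and Trp53. Capitals below mark the matches.
Cdkn1a (chr17:29090729-29090978, forward strand, GRCm38, last 3 bases in the first annotated exon): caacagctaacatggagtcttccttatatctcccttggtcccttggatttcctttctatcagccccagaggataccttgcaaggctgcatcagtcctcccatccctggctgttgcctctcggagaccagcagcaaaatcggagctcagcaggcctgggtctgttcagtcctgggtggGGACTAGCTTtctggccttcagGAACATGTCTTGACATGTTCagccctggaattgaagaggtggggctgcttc
Bbc3 (chr7:16309333-16309582, forward strand, GRCm38, within an intron of Bbc3): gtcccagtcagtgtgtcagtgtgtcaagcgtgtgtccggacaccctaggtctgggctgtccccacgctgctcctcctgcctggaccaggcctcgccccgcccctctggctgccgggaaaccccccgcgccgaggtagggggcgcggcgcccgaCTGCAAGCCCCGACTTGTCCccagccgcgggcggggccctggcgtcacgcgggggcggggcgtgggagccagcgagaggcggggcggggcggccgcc
Mdm2 (chr10:117710759-117711008, reverse strand, GRCm38, in no annotated gene): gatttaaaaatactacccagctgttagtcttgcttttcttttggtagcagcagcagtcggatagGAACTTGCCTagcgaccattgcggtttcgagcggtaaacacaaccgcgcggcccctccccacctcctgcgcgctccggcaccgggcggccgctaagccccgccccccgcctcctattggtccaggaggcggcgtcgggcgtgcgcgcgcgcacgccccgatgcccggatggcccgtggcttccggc
Ccng1 (chr11:40755442-40755491, reverse strand, GRCm38, in no annotated gene): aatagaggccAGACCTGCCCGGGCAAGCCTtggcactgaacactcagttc
Trp53 (chr11:69580264-69580313, forward strand, GRCm38, in no annotated exon): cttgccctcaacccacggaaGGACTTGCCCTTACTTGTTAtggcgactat
Bax (chr7:45467070-45467119, reverse strand, GRCm38, in an intron of Gm45808): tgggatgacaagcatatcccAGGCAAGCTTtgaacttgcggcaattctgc
The Cdkn1a pair began at position -51 from the start and had 1 mismatch, and a separate decamer began at -73. The Ccng1 pair began at -195, also with 1 mismatch. The pairs of Bbc3 at -97 and of Trp53 at -75 had 3 mismatches each. The windows of Mdm2, Bax and Gadd45a held a single decamer, at -186, -201 and -40. Neither was found in the windows of Phlda3 and Sesn2, in the second window of Cdkn1a or in the other 2 windows of Bbc3, and positions are counted from the start of the window shown, which for Cdkn1a and Bbc3 is the most upstream one. For Mdm2 the known p53 elements lie in the first intron, outside this window. A match is a string of letters, not a measured binding site.

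Libraries held 59736771 to 86164159 counts, and the 10 genes had between 366 and 7295 counts in a library. UMBO replicate 2 stood apart from the others: it was the highest of the 5 libraries in 40.4% of the 23592 genes tested. Fold changes of the 10 genes are given with and without it. Levels are CPM, the counts of a gene relative to all counts of its library, on library sizes scaled by the TMM method of edgeR, and levels of different genes are compared as CPM per kilobase of exon (RPKM). None of the markers fixed for neurons, astrocytes, oligodendrocytes, microglia, monocytes and macrophages, T cells, endothelial cells, choroid plexus or red blood cells was at 0 in a library. Each library is a bulk mixture, in which more cells of a type and more RNA per cell cannot be told apart.

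In the vehicle libraries Ccng1 was the most abundant of the 10 transcripts per kilobase, at 23.2 ± 3.51 RPKM (SD, n = 3), and Bbc3 the least, at 2.98 ± 0.892. Phlda3 (13.1 ± 2.80), Mdm2 (10.3 ± 0.149) and Bax (9.001 ± 1.78) followed Ccng1, and their vehicle ranges overlapped from one to the next. Trp53 stood at 6.84 ± 1.10 RPKM, with a vehicle range that overlapped that of Bax and lay above that of Sesn2 (4.58 ± 0.908). Cdkn1a (4.10 ± 1.66), Gadd45a (3.93 ± 1.27), Trp53inp1 (3.01 ± 0.275) and Bbc3 could not be ordered beyond the spread of the vehicle libraries. The vehicle range of Sesn2 (4.02 to 5.63 RPKM) also overlapped those of Cdkn1a and Gadd45a. With the length of the longest transcript in place of all exons, Mdm2 moved up to rank 2 and Sesn2 down to rank 8. In UMBO replicate 2 Cdkn1a reached 21.8 RPKM, above Ccng1 at 19.7 and below Phlda3 at 25.5. In UMBO replicate 1 Cdkn1a was at 4.65 RPKM, within its vehicle range.

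**Figure D1:**
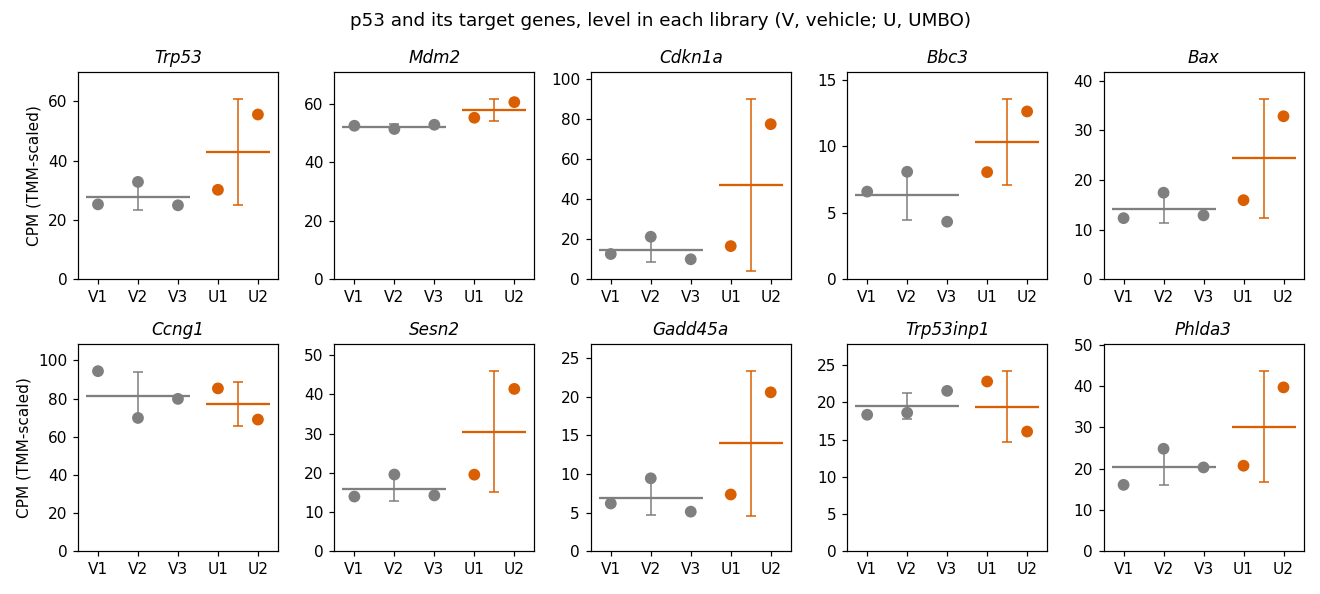
Level of each gene in each library, in TMM-scaled CPM from 0 on the vertical axis; V1 to V3 are the vehicle libraries (grey) and U1 and U2 the UMBO libraries (orange), with the group mean as a line and the SD as a bar. Mdm2 lies between 51.3 and 60.5 CPM in every library, while Cdkn1a reaches 77.4 CPM in U2 against at most 21.2 in the others.

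Trp53 itself (chr11:69580359-69591873, forward strand, GRCm38) was at 25.2, 32.8 and 24.9 CPM in vehicle replicates 1 to 3 and at 30.1 and 55.6 CPM in UMBO replicates 1 and 2. UMBO replicate 1 lay inside the vehicle range and UMBO replicate 2 was 1.69-fold above the highest vehicle library. The log2 fold change of UMBO over vehicle was 0.63 (standard error 0.295; adjusted p 0.497, edgeR quasi-likelihood test). It was 0.13 without UMBO replicate 2.

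Mdm2 (chr10:117688875-117710758, reverse strand), the ligase that marks p53 for degradation, was nearly constant. It was at 52.4, 51.3 and 52.8 CPM with vehicle and at 55.2 and 60.5 CPM with UMBO. It was the only one of the 10 genes with both UMBO libraries above every vehicle library, and its vehicle coefficient of variation of 1.46% was the smallest of the 10. The difference was small, a mean of 52.2 ± 0.759 CPM (SD, n = 3) against 57.8 ± 3.77 (SD, n = 2), and the 2-sided exact permutation test gave p = 0.1, the smallest that 10 groupings of the libraries allow. The log2 fold change was 0.15 (standard error 0.149; edgeR adjusted p 0.599), or 0.08 without UMBO replicate 2. Across the 10 genes, 1 was separated upward in this way, against 11.5% of all genes tested, and 0 downward, against 11.4%. With DESeq2's size factors 3 genes lay above, because UMBO replicate 1 and vehicle replicate 2 were almost level for Sesn2 and Bbc3. The share of all genes was not computed with these factors.

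The per-kilobase ratio of Mdm2 to Trp53 was 1.65, 1.24 and 1.68 with vehicle and 1.46 and 0.866 with UMBO. Mdm4, the Mdm2 relative that blocks p53 without degrading it by itself, was at 105, 81.0 and 129 CPM with vehicle and at 100.1 and 59.7 CPM with UMBO. The ratio of Mdm2 to Mdm4 per kilobase was 2.95 in UMBO replicate 2, outside the range of 1.19 to 1.84 of the other 4 libraries. Cdkn2a, whose ARF product inhibits Mdm2, spanned a far wider range: 1.86, 11.1 and 0.980 CPM with vehicle, 5.07 in UMBO replicate 1 and 56.0 in UMBO replicate 2.

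Among the genes of cell cycle arrest, Cdkn1a (chr17:29090976-29100727, forward strand), which encodes the cyclin-dependent kinase inhibitor p21, showed the widest spread of the 10. It was at 12.6, 21.2 and 9.93 CPM with vehicle and at 16.5 and 77.4 CPM with UMBO. UMBO replicate 1 lay between vehicle replicates 1 and 2, and UMBO replicate 2 was 3.65-fold above the highest vehicle library. The log2 fold change was 1.69 (standard error 0.648; edgeR p 0.0402 unadjusted and 0.497 adjusted). Without UMBO replicate 2 the log2 fold change was 0.18. An annotated antisense transcript on the other strand, AC167363.2, shares 273 bases with Cdkn1a exons and had at most 4 counts in a library.

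Gadd45a (chr6:67035096-67037457, reverse strand), a stress sensor of growth arrest and DNA damage, followed the same order of libraries. It was at 6.19, 9.45 and 5.14 CPM with vehicle and at 7.36 and 20.6 CPM with UMBO. Only UMBO replicate 2 left the vehicle range, and the log2 fold change was 1.01 (standard error 0.485; edgeR adjusted p 0.497), or 0.09 without that library. A transcript on the opposite strand, E230016M11Rik, shares 337 bases (19.1%) of the Gadd45a exons and had 189 to 484 counts in a library. Whether counting used strand is not given in the sources used here, so the Gadd45a level is uncertain.

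Ccng1 (chr11:40748552-40755311, reverse strand), which encodes cyclin G1, a partner of protein phosphatase 2A that acts on Mdm2, went another way. It was at 94.4, 69.9 and 79.9 CPM with vehicle and at 85.3 and 69.0 CPM with UMBO. The groups overlapped, UMBO replicate 2 was the lowest library, and the log2 fold change was -0.08 (standard error 0.207; edgeR adjusted p 0.852). The sign changed with scaling by library size only, to 0.040, and without UMBO replicate 2, to 0.072. The pairs of Ccng1 and Cdkn1a shown above have 1 mismatch each, and in UMBO replicate 2 the Cdkn1a level was 5.32-fold and the Ccng1 level 0.848-fold the vehicle mean.

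The cell death genes Bax and Bbc3 were both highest in UMBO replicate 2. Bax (chr7:45461697-45466898, reverse strand), a BCL2 family member that permeabilises the outer mitochondrial membrane, was at 12.3, 17.4 and 12.9 CPM with vehicle and at 15.9 and 32.8 CPM with UMBO. UMBO over vehicle this was 0.78 on the log2 scale (standard error 0.345, edgeR adjusted p 0.497), or 0.17 without UMBO replicate 2. A gene on the same strand, Gm45808, shares 192 bases (12.2%) of the Bax exons and had 0 counts in every library. How reads in the shared bases were counted is not given in the sources used here, so the Bax level is uncertain. Bbc3 (chr7:16308393-16318205, forward strand) encodes PUMA, a BH3-only protein that frees Bax from its inhibitors. It was at 6.59, 8.09 and 4.32 CPM with vehicle and at 8.06 and 12.6 CPM with UMBO. UMBO replicate 1 was just under vehicle replicate 2, and the log2 fold change was 0.71 (standard error 0.352; edgeR adjusted p 0.497), or 0.35 without UMBO replicate 2. Relative to the survival factor Bcl2, Bax per kilobase was 2.14, 2.75 and 1.91 with vehicle and 2.87 and 4.51 with UMBO. Both lay above the vehicle range, UMBO replicate 1 only just, while the Bax level itself was inside its vehicle range there. How often ratios of other genes separate in this way was not computed.

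Phlda3 (chr1:135766119-135769136, forward strand), which restrains AKT signaling at the membrane, was at 16.1, 24.8 and 20.3 CPM with vehicle and at 20.7 and 39.7 CPM with UMBO. The difference on the log2 scale was 0.56 (standard error 0.329; edgeR adjusted p 0.497), and 0.02 without UMBO replicate 2. Trp53inp1 (chr4:11156431-11174379, forward strand), a stress-induced protein of autophagy and p53 activation, was at 18.3, 18.6 and 21.6 CPM with vehicle and at 22.8 and 16.1 CPM with UMBO. Its UMBO libraries were the highest and the lowest of all 5. The log2 fold change of -0.00 (standard error 0.218; edgeR adjusted p 0.993) averaged these opposite deviations, and it was 0.23 without UMBO replicate 2.

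Sesn2 (chr4:132492032-132510501, reverse strand), a sestrin that restrains mTORC1 under stress, was at 14.0, 19.6 and 14.3 CPM with vehicle and at 19.5 and 41.4 CPM with UMBO. UMBO replicate 1 lay just under vehicle replicate 2, and UMBO replicate 2 was 2.11-fold above it. The log2 fold change was 0.93 (standard error 0.35; edgeR p 0.037 unadjusted and 0.497 adjusted), and 0.30 without UMBO replicate 2.

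Across the 10 genes, 7 shared one pattern: Trp53, Cdkn1a, Bbc3, Bax, Sesn2, Gadd45a and Phlda3 were each highest in UMBO replicate 2, with UMBO replicate 1 inside the vehicle range. This pattern held for 26.8% of all genes tested. The same 7 had vehicle replicate 2 as the highest vehicle library. Wherever UMBO replicate 1 lay, UMBO replicate 2 was the highest library and vehicle replicate 2 the highest vehicle library in 31.3% of all genes. Already within the vehicle group, vehicle replicate 2 was 1.88-fold the mean of vehicle replicates 1 and 3 for Cdkn1a, 1.67-fold for Gadd45a and 1.31-fold for Trp53. The median log2 level of the 10 genes relative to the vehicle mean was -0.12, 0.31 and -0.13 with vehicle and 0.16 and 1.03 with UMBO.

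By the quasi-likelihood test of edgeR 0 of the 10 genes passed an adjusted p of 0.05, as 0 of all 23592 genes tested did (0%), and DESeq2's Wald test also called 0 of the 10, against 42 of all genes (0.178%). At an unadjusted p under 0.05, 2 genes were higher with UMBO (Cdkn1a and Sesn2), where 5.3% of all genes were, and 0 were lower, where 2.06% were. DESeq2 gave the same number, 2, against a background of 8.11% higher. In edgeR neither gene passed 0.05 unadjusted without vehicle replicate 1, without vehicle replicate 3 or without UMBO replicate 2, when the count was 0 each time. Without UMBO replicate 1, 7 of the 10 were higher at an unadjusted p under 0.05, where 21.4% of all genes were. In that fit Trp53, Cdkn1a, Bax, Sesn2 and Gadd45a had an adjusted p of 0.039 in edgeR, where 10.1% of all genes were called higher. That fit compares the lone UMBO replicate 2 with the vehicle libraries and assumes that it varies as they do. UMBO replicate 2 alone lay above every vehicle library for 8 of the 10 genes and below for 2, against 42.2% and 41.6% of all genes, and UMBO replicate 1 alone lay above for 2, against 18.6%. Leaving out vehicle replicate 2 put both UMBO libraries above the remaining vehicle libraries for 8 of the 10, against 30.1% of all genes. Over the 10 genes the log2 fold changes had a median of 0.67, against 0.01 over all genes, and 0.15 without UMBO replicate 2.

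**Figure D2:**
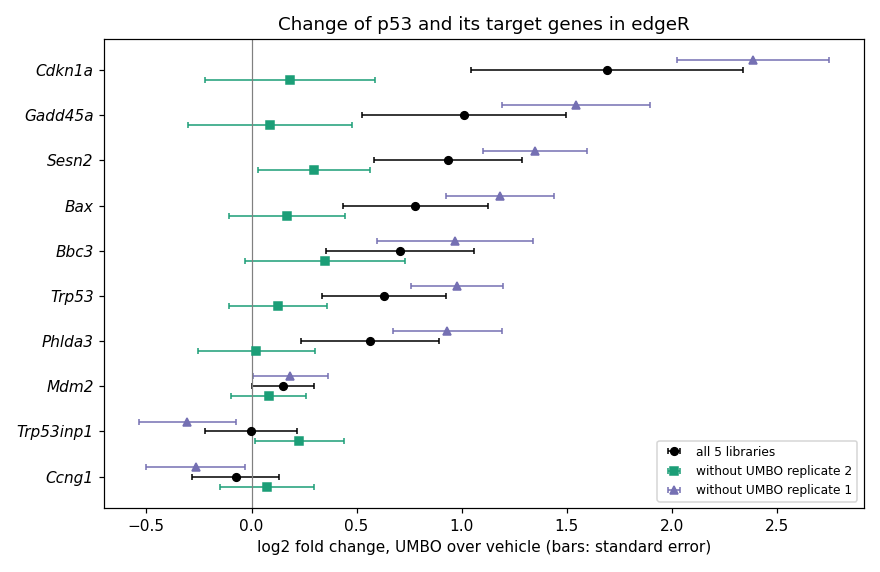
Log2 fold change of UMBO over vehicle from edgeR for each gene, with its standard error as a bar, for all 5 libraries (circles), without UMBO replicate 2 (squares) and without UMBO replicate 1 (triangles). Cdkn1a moves from 1.69 to 0.18 when UMBO replicate 2 is left out, and Mdm2 stays near 0.

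Paralogues of these genes, most of them outside the p53 response, were read beside them. Of 15, 14 had enough counts to be tested, with a median log2 fold change of -0.11. At an unadjusted edgeR p under 0.05, 2 of these were higher, where 5.3% of all genes were, and 0 were lower, where 2.06% were. For p53 the relatives Trp63 and Trp73, regulators of epithelial and neural development, were low and at their lowest in UMBO replicate 2, at 0.565 and 1.65 CPM, against at least 0.896 and 2.27 with vehicle. For p21 the sister inhibitors did not share its spread. Cdkn1b (p27) was at 57.7, 56.1 and 57.5 CPM with vehicle and at 59.9 and 55.3 with UMBO, and Cdkn1c (p57) was between 8.15 and 10.0 CPM in all libraries. The ratio of Cdkn1a to Cdkn1b per kilobase therefore lay between 0.222 and 0.484 with vehicle and was 0.353 and 1.79 with UMBO.

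The sestrins moved apart as well. Sesn1, another p53 target, was at 57.3, 48.4 and 52.4 CPM with vehicle and at 52.6 and 32.97 with UMBO. Sesn3, under FoxO control, was at 237, 169 and 259 CPM with vehicle and at 200.2 and 89.5 with UMBO. In UMBO replicate 2 both were below every other library while Sesn2 was above every other library, and the Sesn2 to Sesn3 ratio per kilobase was 2.03, against 0.242 to 0.507 with vehicle. Without that library the log2 fold change was -0.14 for Sesn3 and -0.0016 for Sesn1, against -0.61 and -0.30 with it.

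The relatives of Gadd45a were likewise highest in UMBO replicate 2. Gadd45b was at 9.95, 11.9 and 6.98 CPM with vehicle and at 12.9 and 26.4 with UMBO, with both UMBO libraries above the vehicle range. Gadd45g was at 9.79, 13.4 and 9.59 CPM with vehicle and at 12.99 and 36.1 with UMBO, so that UMBO replicate 1 lay inside the vehicle range. UMBO over vehicle gave a log2 fold change of 1.03 for Gadd45b (edgeR p 0.0336 unadjusted and 0.497 adjusted) and 1.17 for Gadd45g (0.0364 and 0.497). Without UMBO replicate 2 these were 0.42 and 0.25. Relative to the vehicle mean, the log2 level in UMBO replicate 2 was 1.61 for Gadd45a, 1.49 for Gadd45b and 1.74 for Gadd45g, as the plot of paralogues shows.

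Of the other pairs, Bak1, the second pore former beside Bax, was at 17.6 to 29.2 CPM with vehicle and at 24.1 and 59.3 with UMBO, close to the pattern of Bax. Bok, a further relative, was at 15.7 to 21.3 CPM with vehicle and at 24.8 and 18.5 with UMBO. Phlda1, a PH-domain gene of the Phlda3 family, was at 22.6 to 44.4 CPM with vehicle and at 33.6 and 125 with UMBO. Phlda2 was near absent, at no more than 0.550 CPM, and was not tested. Ccng2 (27.5 to 43.5 CPM) and Trp53inp2 (132 to 229 CPM) were lowest in UMBO replicate 2, as Ccng1 and Trp53inp1 were.

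**Figure D3:**
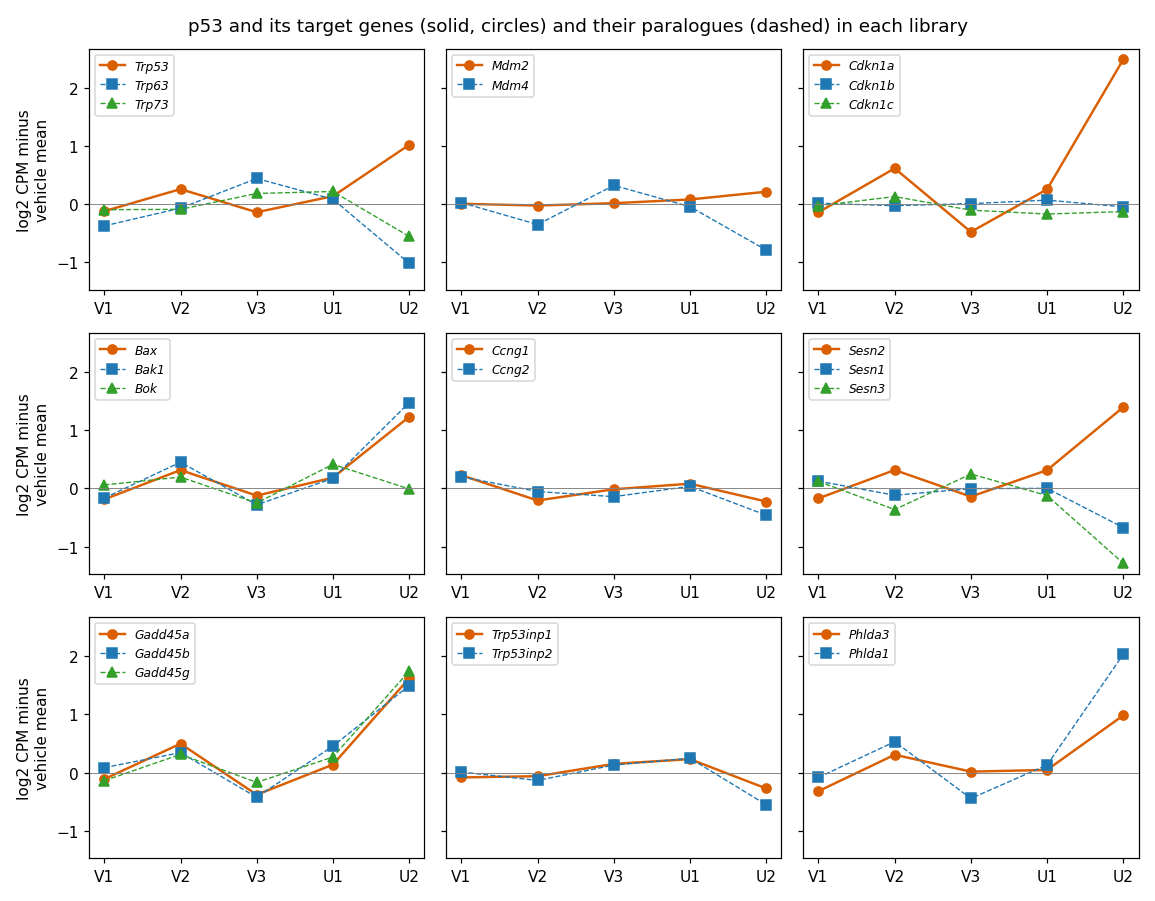
Log2 CPM of each gene minus its mean over the vehicle libraries, for the p53 gene and 8 of its targets (solid lines, circles) and their paralogues (dashed lines), in vehicle libraries V1 to V3 and UMBO libraries U1 and U2. In U2 Cdkn1a and Sesn2 lie above 1 while Cdkn1b is near 0 and Sesn3 below -1.

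A longer list of 37 other p53 target genes, all with enough counts, did not move in one direction. Log2 fold changes were positive for 20 and negative for 17, with a median of 0.06. In edgeR 6 were higher and 1 lower at an unadjusted p under 0.05, against 5.3% and 2.06% of all genes tested, and 0 passed the adjusted threshold. Without vehicle replicate 1, 2 of the 37 were higher at that p, where 194 of all 23137 genes were. Without vehicle replicate 3, 2 were, where 217 of all 22953 were. Without vehicle replicate 2, 6 were, where 2164 of all 23120 were. The 3 with the smallest p toward higher values were Eda2r, Gtse1 and Ddit4, each with both UMBO libraries above the vehicle range. Eda2r, a receptor for ectodysplasin A2, was at 0.401, 0.460 and 0.496 CPM with vehicle and at 0.901 and 1.24 with UMBO. On the log2 scale the fold change was 1.23 (standard error 0.34; edgeR adjusted p 0.497), and 0.99 without UMBO replicate 2. Ddit4, the mTORC1 brake REDD1, which also answers to hypoxia and glucocorticoids, was at 29.2, 40.9 and 27.1 CPM with vehicle and at 48.1 and 67.2 with UMBO. Gtse1, a mitotic gene that also restrains p53, was at 1.10 to 2.25 CPM with vehicle and at 3.03 and 10.6 with UMBO.

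Toward lower values, Ptprv, a phosphatase gene known as a p53 target in mice, was at 9.78, 7.14 and 5.95 CPM with vehicle and at 3.16 and 4.20 with UMBO. On the log2 scale Ptprv was at -1.05 (standard error 0.322; edgeR adjusted p 0.497) and was -1.27 without UMBO replicate 2. Zfp365, a gene of genome stability, was at 528, 385 and 451 CPM with vehicle and at 360 and 165 with UMBO, and Gls2, a glutaminase, was at 15.0 to 23.8 CPM with vehicle and at 15.8 and 10.99 with UMBO. Within this list of 37, 9 genes had both UMBO libraries above the vehicle range and 7 had both below. Over all genes tested these shares were 11.5% and 11.4%.

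Among 21 regulators of p53 and damage kinases, the median log2 fold change was -0.16. At an unadjusted edgeR p under 0.05, 1 was higher, where 5.3% of all genes were, and 0 were lower, where 2.06% were. The one was Chek2, a kinase that stabilises p53 after double-strand breaks, at 2.23, 3.77 and 3.14 CPM with vehicle and at 4.47 and 10.8 with UMBO (log2 fold change 1.33, standard error 0.445, edgeR adjusted p 0.497, and 0.55 on the log2 scale without UMBO replicate 2). Rpl5, a ribosomal protein that binds Mdm2 under nucleolar stress and has processed pseudogenes that can share its reads, was at 152 to 234 CPM with vehicle and at 197 and 508 with UMBO. The coactivator Ep300 (61.6 to 96.0 CPM with vehicle, 68.1 and 38.7 with UMBO), the damage adaptor Trp53bp1 (108 to 152, then 114 and 65.6) and the kinase Hipk2 (39.8 to 96.7, then 53.1 and 29.2) were lowest in UMBO replicate 2.

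Of 14 BCL2 family genes, 0 had an unadjusted edgeR p under 0.05, where 5.3% of all genes were higher and 2.06% lower. Their log2 fold changes had a median of 0.35, and 12 were positive, against 12007 of all 23592 genes. Mcl1, a short-lived survival protein, was at 75.6 to 108 CPM with vehicle and at 101 and 192 with UMBO. Bcl2a1b, a survival gene of leukocytes with near-identical copies that make its count uncertain, was at 0.0535 to 0.727 CPM with vehicle and at 0.679 and 3.36 with UMBO. Bcl2l2 (BCL-W), abundant in neurons, was at 104 to 118 CPM with vehicle and at 103 and 71.6 with UMBO. Hrk, a BH3-only gene of neurons, was at 54.8 to 58.7 CPM with vehicle and at 65.8 and 33.1 with UMBO.

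Genes that p53 is known to lower through p21, most of them mitotic, had positive log2 fold changes, the same sign as Cdkn1a. Their median log2 level relative to the vehicle mean was -0.22, 0.87 and -0.59 with vehicle and 0.99 and 2.91 with UMBO. Of 16, 15 had an unadjusted edgeR p under 0.05 toward higher values, where 5.3% of all genes did, and 0 toward lower, where 2.06% did. After adjustment 0 passed, and the median log2 fold change was 2.14 (0.74 without UMBO replicate 2). Without vehicle replicate 1, vehicle replicate 3 or UMBO replicate 2, the number under 0.05 was 1. Mki67, a marker of dividing cells, was at 9.15, 14.2 and 6.37 CPM with vehicle and at 20.2 and 51.8 with UMBO. Rrm2, the S-phase subunit of ribonucleotide reductase, was at 3.39 to 7.92 CPM with vehicle and at 8.97 and 34.5 with UMBO. Bub1, a spindle checkpoint kinase, was at 1.03 to 3.41 CPM with vehicle and at 4.12 and 15.3 with UMBO. Per kilobase, Cdkn1a exceeded Cdk1, the mitotic kinase, by 5.57-fold, 2.58-fold and 7.21-fold with vehicle and by 2.68-fold and 1.84-fold with UMBO.

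**Figure D4:**
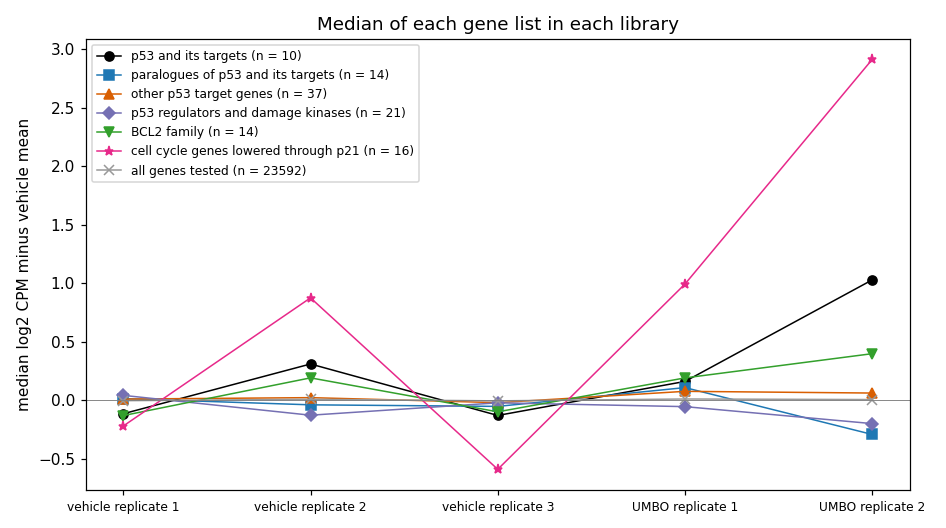
Median over each gene list of log2 CPM minus the vehicle mean, for each of the 5 libraries. The cell cycle list (stars) stands at 2.91 and p53 with its targets (circles) at 1.03 in UMBO replicate 2, while the 37 other p53 target genes stand at 0.06 there.

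Marker genes of several cell types were at other levels in the libraries where p53 and its targets were high. The 6 markers of cycling cells are all in the cell cycle list above, so they are not a separate observation. Over all genes tested, 5.3% were higher and 2.06% lower at an unadjusted edgeR p under 0.05. The summed level of 6 markers of cycling cells was 21.7 to 74.5 CPM in the vehicle libraries and 79.8 and 329 CPM in UMBO replicates 1 and 2, with 6 of 6 higher at an unadjusted edgeR p under 0.05, and 1 of 6 without UMBO replicate 2, vehicle replicate 1 or vehicle replicate 3. For 6 markers of monocytes and macrophages the sum was 19.3 to 82.6 CPM with vehicle and 72.5 and 376 with UMBO, with 1 of 6 under that p. For 6 microglia markers it was 374 to 539 CPM and then 695 and 811, with 4 of 6 under that p. For 6 endothelial markers it was 118 to 166 CPM and then 205 and 221, with 3 of 6. Without UMBO replicate 2 these numbers were 0 for monocytes and macrophages, 2 for microglia and 1 for endothelial cells, and without vehicle replicate 1 they were 0, 1 and 1. Not every microglia marker was higher. With all 5 libraries 4 had a positive and 2 a negative log2 fold change, the lowest at -0.07. Without UMBO replicate 1 the lowest log2 fold change was -0.88 among the microglia markers, with 4 positive and 2 negative. Among the endothelial markers it was then -0.48, with 5 positive and 1 negative. The sum of 7 neuronal markers was 4966 to 7734 CPM with vehicle and 5167 and 2530 with UMBO. Of these, 0 of 7 had an unadjusted edgeR p under 0.05 in either direction. The sums for astrocytes (2709 to 3872 CPM with vehicle, 4534 and 2740 with UMBO) overlapped between the groups, with 1 of 5 markers higher at an unadjusted edgeR p under 0.05. That marker, Gfap, which rises in reactive astrocytes, was at 214, 515 and 388 CPM with vehicle and at 1396 and 1636 with UMBO, and it was the one marker of these lists past the adjusted threshold of the DESeq2 Wald test (adjusted p 0.00304, against 0.497 in edgeR). The sums for T cells (16.7 to 26.9, then 9.75 and 33.7), oligodendrocytes (5384 to 5483, then 5709 and 4848) and choroid plexus (801 to 831, then 850.4 and 494.8) lay on both sides of the vehicle range, and red blood cell markers stood at 71.8 to 165 and then 181 and 217. The part of these cells in the levels of p53 and its targets was not tested.

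Likeness to Trp53 and to Cdkn1a was measured over the genes tested that have a symbol. It is the root mean square distance between log2 CPM profiles over the 5 libraries, each centred on its own mean. The 3 nearest to Trp53 were Fam72a (distance 0.0104), the ribosome biogenesis gene Rsl24d1 (0.0226) and the nucleolar gene Nol12 (0.0259). Rsl24d1 was at 28.1, 36.1 and 27.3 CPM with vehicle and at 32.9 and 63.3 with UMBO. The 3 nearest to Cdkn1a were Rps2-ps11 (0.0395), Gm11361 (0.0525) and Gm38247 (0.0571). The first is a pseudogene of a ribosomal protein gene, whose count can include reads of its parent, and none of the 3 exceeded 9.48 CPM in a library. These distances rest on 5 libraries and carry no test.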

How the data were processed

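STAR 2.7.2a and GRCm38 are named in the submitters' processing notes, and the authors deposited 1 table of raw read counts per Ensembl gene for each library; the annotation release and strand setting are not given in the sources used here. Symbols, positions and exon lengths came from GENCODE M21 on the same build (55394 of 55573 identifiers matched). Groups follow the sample labels. After filterByExpr, edgeR 4.0.16 (TMM, quasi-likelihood test, R 4.3.3) was run on 23592 genes, with Benjamini-Hochberg adjustment over all of them and a limit of 0.05. Libraries held 59736771 to 86164159 counts. Log2 CPM used a prior count of 2. The exact permutation test was 2-sided over 10 groupings.

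The 10 genes and all lists were chosen with earlier results of these data known. Named were the 10 genes, their paralogues and the 3 genes of smallest p per direction in every other list. The 3 genes most alike to Trp53 and to Cdkn1a were named as well, as were genes that overlap exons of the 10. Bcl2 and Cdk1 serve as ratio partners only. Alternatives covered DESeq2 1.42.0, other scalings and filters, a replicate block and each library left out. Scripts were tested on simulated data.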

Additional observations from a re-analysis of the deposited data

How the results depend on the processing

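No gene passed the adjusted threshold in edgeR with the other scalings and filters, against 42 genes with the DESeq2 Wald test. Genes with an unadjusted p under 0.05 numbered 1738, 4100 with no filter on low counts and 2639 with DESeq2; the cause was not tested. With 1 library left out in turn, this number ranged from 296 (without vehicle replicate 1) to 10165 (without UMBO replicate 1), and genes past the adjusted threshold from 0 to 4543. Of p53 and its targets, 0 to 5 then passed the adjusted threshold, 0 to 7 were higher at an unadjusted p under 0.05, 1 to 8 had UMBO above every vehicle library and 0 to 2 below; without UMBO replicate 1 the shares of all genes were 21.4%, 42.2% and 41.6% for the last 3 of these. With no filter on low counts 5 were higher at an unadjusted p under 0.05, where 2954 of all 40435 genes were. With DESeq2's size factors 3 did not overlap, and the share of all genes was not computed with these factors.

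With the replicate block, 2337 genes passed the adjusted threshold and 6134 an unadjusted p of 0.05. Of the 10 genes 2 and 6 did, all toward higher values, where 1428 and 3396 of all 23592 genes did. Vehicle replicate 3 has no UMBO library of its number, so it adds nothing to this contrast. Nothing says that replicate numbers mark shared litters or days. The deviations from the group means correlated at 0.453 for number 1 and 0.76 for number 2, but those of vehicle replicate 3 with UMBO replicate 1, which share no number, at 0.521. With 2 UMBO libraries these deviations mirror each other, so no pairing can be read from them.

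For the 10 genes the median log2 fold change ranged from 0.15 (without UMBO replicate 2) to 0.97 (without UMBO replicate 1) with 1 library left out. It ranged from -0.16 to 0.072 for their paralogues, 0.027 to 0.099 for other p53 targets, -0.23 to -0.091 for regulators, 0.17 to 0.48 for the BCL2 family and 0.74 to 2.78 for cell cycle genes. Scaling by library size only gave 0.17 for other p53 targets and -0.042 for regulators, since it moved the median of all genes from 0.01 to 0.13; other p53 targets were at 0.039 with no filter and 0.042 with at least 10 counts in every library. Signs changed for small fold changes. With library size only, Ccng1 was at 0.040 and Trp53inp1 at 0.099; Trp53inp1 was at 0.0012 with at least 10 counts and 0.053 with the block, and Cdkn1b at -0.011 with no filter. Leaving out 1 library turned further signs, with ranges of -0.27 to 0.072 for Ccng1, -0.31 to 0.23 for Trp53inp1, -1.12 to 0.045 for Trp63, -0.59 to 0.21 for Trp73, -0.074 to 0.071 for Cdkn1b, -0.049 to 0.40 for Bok, -0.50 to 0.030 for Ccng2, -0.59 to 0.24 for Trp53inp2 and -0.81 to 0.21 for Hrk. Without UMBO replicate 2 the sign turned for all of these but Cdkn1b and Bok, which turned without UMBO replicate 1. By length of the longest transcript, Mdm2 ranked 2, Phlda3 3, Cdkn1a 6, Gadd45a 7 and Sesn2 8.

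With 3 libraries against 2, the exact permutation test cannot go below p = 0.1. What depth limits was not tested.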
